A study of Homo sapiens with 15 samples.

Results

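The SOX genes described here encode 10 transcription factors: SOX2, SOX4, SOX5, SOX6, SOX7, SOX8, SOX9, SOX11, SOX13 and SOX17. They were taken from a list of names, among 19962 protein-coding genes on chromosomes 1 to 22 and X, and each was followed over its GENCODE v44 gene body plus 50 kb on each side. These windows held 276 of the 366067 regions made by merging the ATAC-seq peaks of all libraries, and no window shared bases with another. ATAC-seq marks DNA that the Tn5 transposase can reach, and a region without a called peak lay below the calling threshold, which is not the same as closed.

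SOX proteins bind DNA through an HMG box that recognises the core AACAAT and bends the helix, and they usually act together with partner factors. They fall into groups by sequence: SOX2 belongs to the B1 group of stem and neural progenitor factors, SOX4 and SOX11 to the C group, SOX5, SOX6 and SOX13 to the D group, SOX8 and SOX9 to the E group and SOX7 and SOX17 to the F group of endothelial and endodermal factors. In the kidney, SOX8 and SOX9 take part in branching of the ureteric epithelium, and SOX9 is known as a gene that injured tubule cells switch on.

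The cells were RPTEC, a human renal proximal tubule epithelial line immortalised with hTERT, which all groups share. WT libraries came from the parental line with intact SETD2, which encodes the methyltransferase that puts H3K36me3 on transcribed genes. KO1 and KO2 libraries each came from 1 single-cell clone with frameshifts in exon 3 of SETD2, made with Cas9 and a guide RNA. Rescue1 and Rescue2 libraries came from single colonies of knockout cells that carried a lentiviral full-length, FLAG-tagged SETD2 and had been selected with blasticidin, and the sample codes name both after the KO2 clone. Each of the 5 groups had 3 libraries. Nothing states that the 3 libraries of a clone were separate cultures, so p-values measure the spread between these libraries, and clone and genotype cannot be told apart where a clone differs. A bulk library also cannot separate fewer cells with an open region from less access per cell.

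The lists held between 197527 and 266011 peaks. Total length under peaks was 49.2 to 56.0 Mb in WT, 52.2 to 61.3 Mb in KO and 53.0 to 64.9 Mb in rescue libraries. It thus moved with the groups, and each comparison of a whole window was also computed after scaling to it. The base overlap of peak sets (Jaccard index) was 0.723 to 0.787 between libraries of the same group and 0.587 to 0.739 between groups. A promoter peak was present in all 15 libraries at 7 of 11 kidney epithelial marker genes, PAX8 and PAX2 among them, while HNF4A, CUBN and AQP1, markers of the mature proximal tubule, had none in any library, and LRP2, another of them, had one in 14, missing in 1 WT library. The blood markers PTPRC and CD3E had none, whereas 1 of 3 endothelial markers (CDH5) and 2 of 4 fibroblast and muscle markers (COL1A1 and PDGFRB) had one in all 15, and DES had one in the 3 WT libraries alone. The part of other cell types in the results was not tested. The edited exon of SETD2 lay under a peak in 10 libraries, but peak lists do not show small edits, so they give no check of the knockout.

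SOX5 stood apart from the other members. Its window held 2.42 times as many bases under peaks in KO as in WT libraries, and the mean of the rescue libraries was 2.28 times that of WT. Of the 12 member regions present in every KO and no WT library, a pattern of 4.79% of all regions, 9 were in its window. SOX7 and SOX9 were higher in KO libraries by smaller ratios, SOX8 and SOX17 were lower, and SOX2, SOX4, SOX6, SOX11 and SOX13 differed by less than the test could separate. Of all genes, 17.6% were higher and 15.5% lower in KO than WT at an unadjusted p under 0.05. In rescue against KO libraries, SOX7, SOX8, SOX13 and SOX17 rose, beside 37.6% of all genes, and SOX6 fell, beside 6.84%. The median rise of all genes, 365 bases, was above that of the members, 252.

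**Figure D1:**
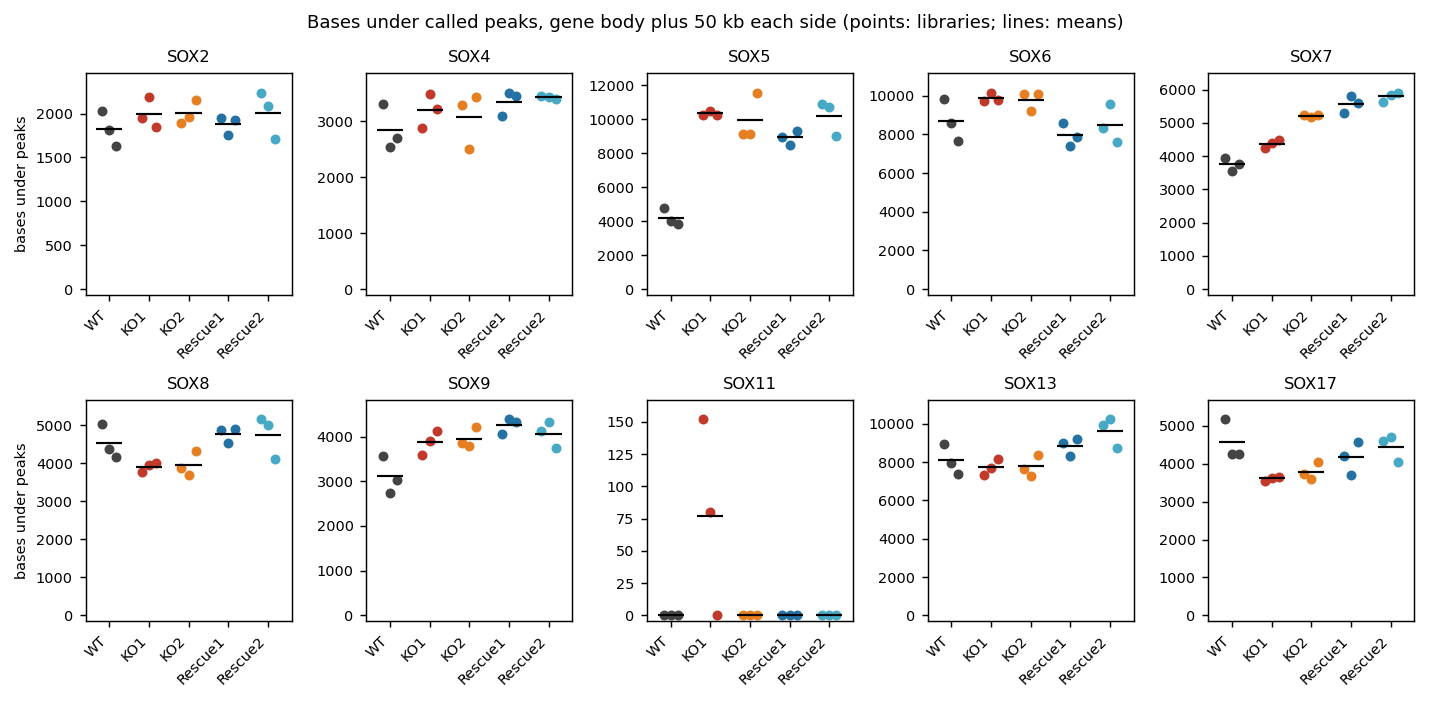
Bases under called peaks in the window of each SOX gene, 1 point per library and a line at the mean of the 3 libraries of a group, with a separate linear axis from 0 for each gene. The 12 KO and rescue libraries of SOX5 sit between 8475 and 11541 bases, all above the 3 WT libraries at 3812 to 4790, while the groups of SOX2 overlap.

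Each window was compared by the number of its bases under peaks per library, with an exact two-sided permutation test of the library labels (6 KO against 3 WT, 6 rescue against 6 KO). The test was run on all 19962 genes with Benjamini-Hochberg adjustment over them. For KO against WT the smallest p that the 84 splits allow is 0.0238, and 9506 genes would have had to reach it for any to pass adjustment. It was reached by 5054 genes, so the smallest adjusted p was 0.0940 and 0 genes passed, while 6591 had an unadjusted p under 0.05. At an unadjusted p under 0.05, 3 members were higher (SOX5, SOX7 and SOX9), beside 17.6% of all genes, and 2 were lower (SOX8 and SOX17), beside 15.5%. The median difference was 231 bases over the members and 0 bases over all genes. After scaling to total length under peaks, the same 3 members were higher at an unadjusted p under 0.05, beside 13.9% of all genes. SOX8, SOX13 and SOX17 were lower, beside 44.3%. Each of these members had the smallest exact permutation p of 0.0238 and an adjusted p of 0.0473. Past adjustment, 2396 of all genes were higher and 7653 lower. That scaling moved the median log2 ratio of all genes by -0.11, and higher genes then made up 23.8% of the unadjusted calls in place of 53.2%.

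For rescue against KO the smallest p of the splits is 0.00216. Here 4 members were higher at an unadjusted p under 0.05, beside 37.6% of all genes, and 1 was lower, beside 6.84%. The same 5 members passed adjustment, where the shares of all genes were 26.2% higher and 4.89% lower. The median difference was 252 bases over the members and 365 bases over all genes. After scaling, higher genes made up 70.6% of the calls in place of 84.6%.

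**Figure D2:**
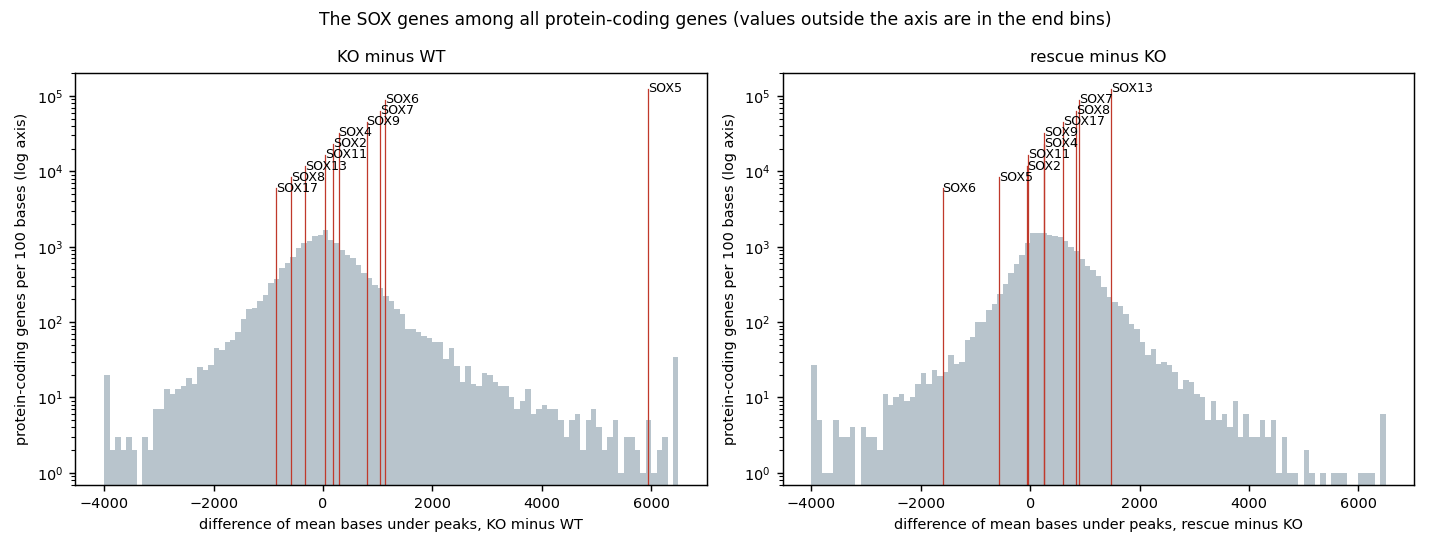
Difference of mean bases under peaks for all 19962 protein-coding genes (histogram, log axis) with the 10 SOX genes as red lines, for KO minus WT on the left and rescue minus KO on the right. SOX5 lies at 5937 bases in the tail of the left panel, and in the right panel SOX6 at -1601 is the lowest and SOX13 at 1476 bases the highest of the 10.

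SOX5 (ENSG00000134532.20, hg38 chromosome 12, 23529504 to 24562544, minus strand) encodes a D-group factor without an activation domain of its own, known from cartilage and neural development. WT libraries had 4790, 3979 and 3812 bases under peaks. KO1 libraries had 10232, 10499 and 10260 bases, and KO2 libraries had 9115, 9139 and 11541. All 6 KO libraries were above all 3 WT libraries, and KO1 and KO2 overlapped with each other. The KO mean of 10131 ± 913 bases (SD, n = 6) exceeded the WT mean by 5937 bases, with an exact permutation p of 0.0238 and an adjusted p of 0.0940. Counted from the highest, this difference was rank 43 of 19962 genes, in bases and without regard to window length, which was 1133 kb for SOX5. KO1 and KO2 each exceeded WT, by 6137 and 5738 bases.

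Rescue1 libraries held 8968, 8475 and 9303 SOX5 bases under peaks and Rescue2 libraries 10856, 10737 and 9002. All 6 stayed above every WT library, and their mean of 9557 ± 997 (SD, n = 6) differed from the KO mean by -574 bases (exact permutation p = 0.327, adjusted p = 0.446). After scaling to total length under peaks the difference was -977 bases (exact permutation p = 0.0108, adjusted p = 0.0318), so this call depended on the scaling. Against KO2 alone, Rescue1 differed by -1016 bases and Rescue2 by 267.

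The SOX5 window held more regions in KO libraries, and they were somewhat wider. There were 18 to 23 regions per library in WT, 38 to 51 in KO and 31 to 45 in rescue libraries, while a region covered on average 209.7 bases in WT, 244 in KO and 259 in rescue. Of its 58 regions held by at least 2 libraries, 31 were in some KO library and no WT library, and 4 were in some WT library and no KO library. All 3 libraries of a group held 14 of the 58 in WT, 29 in KO1, 32 in KO2, 25 in Rescue1 and 30 in Rescue2. Leaving out the 10 regions called between KO and WT still left 4095 bases in WT and 7904 in KO libraries.

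The distal regions of SOX5 carried most of the difference. Distal bases, away from any start of a protein-coding transcript by more than 1 kb, were 3006, 2598 and 2514 in WT, 7791 to 8258 in KO1 and 7036 to 9123 in KO2 libraries, a ratio of 2.93. They stayed at 7268 to 8937 in rescue libraries. Promoter bases ranged from 1298 to 1784 in WT and from 1686 to 2469 in KO libraries, a ratio of 1.48 with overlapping groups (exact permutation p = 0.0476, adjusted p = 0.213). In rescue libraries the promoter bases were 1207 to 2181, a ratio to KO of 0.749 (exact permutation p = 0.0195, adjusted p = 0.0881). The clones differed, with 1207 to 1463 in Rescue1 and 1691 to 2181, within the KO range, in Rescue2. Against KO2 alone the differences were -703 bases for Rescue1 and -131 for Rescue2. The promoter of the canonical transcript and that of the longest transcripts, at -613 kb, each held a peak in all 15 libraries. A promoter region at -0.964 kb was in 13, missing in 2 Rescue1 libraries, and another at -1.52 kb was in 1 KO1 library alone. Negative distances lie upstream.

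**Figure D3:**
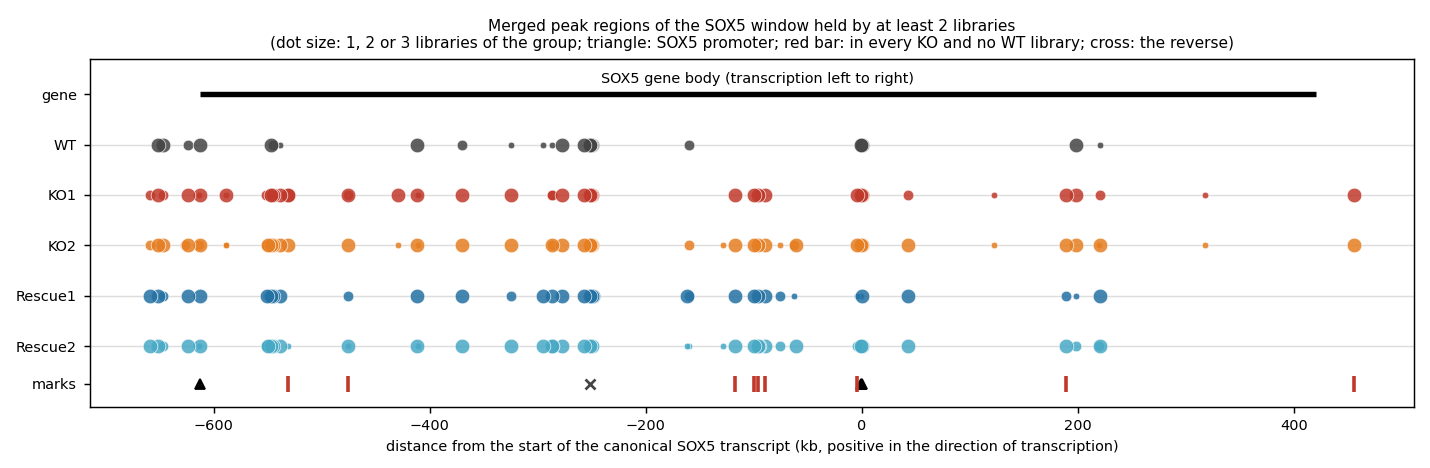
The 58 regions of the SOX5 window held by at least 2 libraries, by distance in kb from the canonical transcript start, with dot size for 1, 2 or 3 libraries of each group. The red bars mark 9 regions in every KO and no WT library, and a cluster of them lies at -89.6 to -117 kb, where the WT row is empty and the rescue rows are filled.

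In all, 9 SOX5 regions were in all 6 KO and no WT library. The 4 at -89.6, -96.3, -99.7 and -117 kb from the canonical start (chromosome 12, 24039086 to 24039451, 24045725 to 24046291, 24049246 to 24049439 and 24066840 to 24067366) were in all 6 rescue libraries as well. They lie within the SOX5 gene, outside exons and upstream of the canonical transcript but inside its longer ones. The region at -96.3 kb ranked highest, with a mean percentile of 90.7 for the fold enrichment among the peaks of a list. A further pair, at 189 kb in intron 3 (23760638 to 23760898) and at -476 kb (24425658 to 24425949), were in 5 rescue libraries, and the one at -4.87 kb (23954485 to 23954596) was in 3.

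The last 2 gained SOX5 regions were nearly or wholly absent in rescue libraries. The one at -531 kb (24480730 to 24481003) was in 1 Rescue2 library, and the one at 456 kb (23493739 to 23494080), past the end of the gene, was in none. The latter was the only SOX region gained in KO and also lost in rescue. A region at -251 kb (24201054 to 24201190) showed the reverse pattern, in all 3 WT and no other library. The single region gained in rescue against KO lay at -295 kb over SOX5-AS1 (24244766 to 24245132), in all 6 rescue, no KO and 1 WT library.

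The sequences of 5 of these regions are given because they are the region called in both comparisons and the 4 other SOX5 regions gained in KO with the highest fold enrichment. Each is 300 bases about the middle of the region, hg38, plus strand, in lower case, with capitals for a match, searched on both strands, to the SOX core AACAAT, the AP-1 site TGANTCA, the TEAD site GGAATG or the POU octamer ATGCAAAT.
SOX5 region at -96.3 kb, chr12:24045858-24046157: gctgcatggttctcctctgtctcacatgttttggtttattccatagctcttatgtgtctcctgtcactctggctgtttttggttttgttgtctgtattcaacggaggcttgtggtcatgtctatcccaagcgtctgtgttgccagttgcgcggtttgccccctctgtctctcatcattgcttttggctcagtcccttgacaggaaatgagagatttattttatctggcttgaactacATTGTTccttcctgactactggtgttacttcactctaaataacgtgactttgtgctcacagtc
SOX5 region at -117 kb, chr12:24066953-24067252: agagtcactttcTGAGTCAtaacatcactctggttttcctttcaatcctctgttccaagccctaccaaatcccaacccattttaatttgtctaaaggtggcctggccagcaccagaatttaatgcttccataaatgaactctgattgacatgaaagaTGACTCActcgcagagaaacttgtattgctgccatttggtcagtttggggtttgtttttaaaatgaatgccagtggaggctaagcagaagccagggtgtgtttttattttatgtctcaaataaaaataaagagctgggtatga
SOX5 region at -89.6 kb, chr12:24039119-24039418: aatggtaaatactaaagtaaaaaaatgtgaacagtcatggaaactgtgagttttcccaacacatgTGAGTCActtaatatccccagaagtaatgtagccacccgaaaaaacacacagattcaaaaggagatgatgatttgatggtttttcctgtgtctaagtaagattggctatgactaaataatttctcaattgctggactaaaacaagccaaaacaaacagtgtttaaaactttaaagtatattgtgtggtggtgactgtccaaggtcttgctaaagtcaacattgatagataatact
SOX5 region at -476 kb, chr12:24425654-24425953: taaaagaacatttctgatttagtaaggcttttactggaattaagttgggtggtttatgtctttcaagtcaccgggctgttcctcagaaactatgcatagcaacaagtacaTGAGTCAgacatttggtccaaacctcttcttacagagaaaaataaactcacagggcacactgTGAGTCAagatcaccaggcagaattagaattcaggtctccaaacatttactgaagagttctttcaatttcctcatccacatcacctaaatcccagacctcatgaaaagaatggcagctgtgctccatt
SOX5 region at 456 kb, chr12:23493760-23494059: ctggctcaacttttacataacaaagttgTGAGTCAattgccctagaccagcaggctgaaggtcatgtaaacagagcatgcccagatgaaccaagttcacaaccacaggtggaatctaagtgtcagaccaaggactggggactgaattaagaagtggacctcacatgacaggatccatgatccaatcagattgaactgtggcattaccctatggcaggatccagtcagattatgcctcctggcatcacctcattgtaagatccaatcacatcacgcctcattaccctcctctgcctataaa

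The region at -96.3 kb held 1 SOX core on the minus strand and no AP-1 match. Regions at -89.6 kb and 456 kb held 1 AP-1 match, and those at -117 and -476 kb held 2. Over all 9 gained SOX5 regions, 5 had an AP-1 match (55.6%) and 3 a SOX core (33.3%), and none had the POU octamer. The AP-1 share was 37.9% over the 58 SOX5 regions, 42.4% over all 13626 distal regions gained in KO and 34.0% over all distal regions of at least 2 libraries. The SOX core was in 34.5% of the 58 SOX5 regions, 20.7% of the 217 member regions and 15.3% of all 293527 regions, and the median GC content was 39.8%, 47.0% and 46.7%. The SOX5 regions thus had the highest share of this AT-rich motif and the lowest GC content. The member regions, those of SOX5 included, were above all regions in both. Of the 45 member regions with the SOX core, 20 were among the 58 at SOX5. The share without SOX5 was not computed. The part of GC content was not tested. A match is a run of letters and says nothing of binding.

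Among genes on other chromosomes, the pattern most like SOX5 over the 15 libraries was that of CADPS2 (Spearman rho = 0.979) and OTUD7A (0.979). CADPS2 had 2231 bases under peaks in WT, 5127 in KO1, 4761 in KO2, 4329 in Rescue1 and 4974 in Rescue2 libraries on average. All points share the same 15 libraries and their depth. SOX5 and SOX6 are long genes, and of the 322 genes of at least 500 kb, 50.3% were higher and 5.28% lower in KO than WT at an unadjusted p under 0.05, and 18.3% were higher and 28.0% lower in rescue than KO. This class was chosen after the SOX5 values were seen. Per 100 kb of window, SOX5 had 370.1 bases under peaks in WT and 912 in KO1, fewer than any other member but SOX11.

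SOX6 (ENSG00000110693.19, chromosome 11, 15966449 to 16739591, minus strand) encodes the D-group partner of SOX5 in cartilage. WT libraries had 9858, 8605 and 7649 bases under peaks, and KO libraries 9215 to 10153 with a median of 9921. The groups overlapped, since the highest WT library lay within the KO range (exact permutation p = 0.0952, adjusted p = 0.225). Rescue1 libraries had 8587, 7424 and 7892 bases and Rescue2 libraries 8328, 9566 and 7622. SOX6 fell by 1601 bases from KO to rescue (exact permutation p = 0.00433, adjusted p = 0.0216), with 5 of 6 rescue libraries below all KO libraries, and 4 of 6 were within the WT range.

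Distal bases of SOX6 gave the same order: 6718 to 8523 in WT, 8207 to 9247 in KO and 6390 to 8243 in rescue libraries. KO exceeded WT with a p of 0.0476 by the exact permutation test (adjusted p = 0.123), and rescue lay below KO with a p of 0.00433 (adjusted p = 0.0217). Of its 49 regions in at least 2 libraries, 1 was in every KO and no WT library. It lay in exon 16 (15968043 to 15968329), and all 3 Rescue1 but no Rescue2 libraries held it. A pair of regions upstream of the canonical start, at -75.5 kb (16431869 to 16432125) and -257 kb (16612923 to 16613265, over an exon of C11orf58), were in all 6 KO, no rescue and 1 or 2 WT libraries. With promoters taken within 2.5 kb, the one at -75.5 kb counts as a promoter region. The one at -257 kb lies within 100 bp of a region held by all 15 libraries (16613357 to 16614329). Merging peaks within 100 bp joins them, and the loss at -257 kb is then not called. The SOX6 promoter region (16356419 to 16356591) was in 2 WT, 3 KO1, 3 KO2, no Rescue1 and 1 Rescue2 library.

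SOX13 (ENSG00000143842.15, chromosome 1, 204073115 to 204127743, plus strand) encodes the remaining D-group factor, known from T-cell development. WT libraries had 8954, 7931 and 7354 bases under peaks and KO libraries 7294 to 8375, with overlap (exact permutation p = 0.452, adjusted p = 0.624). Scaled to total length under peaks, the difference was -977 bases (exact permutation p = 0.0238, adjusted p = 0.0473), and without WT replicate 1 the unscaled difference changed sign to 108 bases. Rescue1 libraries had 9014, 8291 and 9184 bases and Rescue2 libraries 9912, 10235 and 8725. SOX13 rose by 1476 bases from KO to rescue (exact permutation p = 0.00433, adjusted p = 0.0216), with 5 of 6 rescue libraries above all KO libraries. Its distal bases, 4659 to 5558 in KO and 5639 to 6867 in rescue libraries, did not overlap (exact permutation p = 0.00216, adjusted p = 0.0141).

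SOX13 had the only promoter region gained in KO. It lies at 40.3 kb (204113175 to 204113631) in intron 2 of the canonical transcript, at an internal start of another SOX13 transcript, and was in all 6 KO and all 6 rescue but no WT library. The neighbouring promoter region at 40.9 kb (204113710 to 204114261) was in all 15 libraries. It lies within 100 bp of the gained region. Merging peaks within 100 bp joins them into a region held by all 15 libraries, which is not gained. A small promoter region at 0.803 kb was in 1 WT and 1 Rescue2 library. A region in intron 1 (204098840 to 204099058) was in all 3 WT and no KO library, and in 1 Rescue1 and 2 Rescue2 libraries.

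SOX7 (ENSG00000171056.8, chromosome 8, 10723768 to 10730511, minus strand) encodes an F-group factor of vessel development. WT libraries had 3959, 3542 and 3765 bases under peaks, KO1 libraries 4255, 4386 and 4497 and KO2 libraries 5252, 5180 and 5228. The KO mean of 4800 ± 467 (SD, n = 6) was 1.28 times the WT mean with no overlap (exact permutation p = 0.0238, adjusted p = 0.0940), and every KO2 library was above every KO1 library. Rescue1 libraries had 5292, 5814 and 5613 bases and Rescue2 libraries 5642, 5856 and 5907, all above every KO library. SOX7 rose by 888 bases from KO to rescue (exact permutation p = 0.00216, adjusted p = 0.0140), away from WT. After scaling the adjusted p was 0.0961, and against KO2 alone the rise was 467 bases.

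With the KO clones pooled, the SOX7 difference between KO and WT lay away from the gene. With flanks of 10 kb, they differed by 40.2 bases (exact permutation p = 0.857), while rescue exceeded KO by 468 bases (exact permutation p = 0.00433, adjusted p = 0.0265). Distal bases were 2727 to 2966 in WT, 3409 to 3507 in KO1, 4171 to 4258 in KO2 and 4379 to 4918 in rescue libraries, whereas promoter bases ranged from 815 to 1042, with overlap in both comparisons. A region at -41.9 kb, inside PINX1 (10772227 to 10772555), was in all 6 KO, all 6 rescue and no WT library. A region at 14.2 kb (10716049 to 10716603), downstream of the gene and inside the 10 kb flank, was in all 3 libraries of every group but KO1, which had it in none. The KO value at flanks of 10 kb pools both clones, so it does not show that each was unchanged near the gene. Of the 15 regions held by at least 2 libraries, 9 were in all 15.

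SOX17 (ENSG00000164736.6, chromosome 8, 54457935 to 54460892, plus strand) encodes an F-group factor of endoderm and vessels. WT libraries had 5175, 4255 and 4248 bases under peaks, KO1 libraries 3547, 3627 and 3657 and KO2 libraries 3716, 3599 and 4054. All 6 KO libraries were below all WT libraries, and the difference was -859 bases (exact permutation p = 0.0238, adjusted p = 0.0940). Without WT replicate 1 it was -552. Rescue1 libraries had 4213, 3709 and 4570 bases and Rescue2 libraries 4606, 4715 and 4035, and 3 of the 6 were within the WT range. SOX17 rose by 608 bases from KO to rescue (exact permutation p = 0.0108, adjusted p = 0.0388), and against KO2 alone the exact permutation p was 0.119. With flanks of 10 kb the differences were -552 bases between KO and WT and 343 between rescue and KO (exact permutation p = 0.0238 and 0.00216).

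The SOX17 promoter region was in all 15 libraries, with 326 to 667 promoter bases and overlap in both comparisons. The difference lay in distal bases, which were 3709 to 4576 in WT and 2971 to 3513 in KO libraries (exact permutation p = 0.0238, adjusted p = 0.0778) and 3175 to 4207 in rescue libraries. A region at -14.2 kb (54443629 to 54443788) was in all 3 WT, no KO, 3 Rescue1 and 1 Rescue2 libraries. Regions at 1.70 and 20.4 kb were in 2 WT libraries and no other.

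SOX9 (ENSG00000125398.8, chromosome 17, 72121020 to 72126416, plus strand) encodes the E-group factor of cartilage, testis and injured tubule. WT libraries had 3564, 2743 and 3032 bases under peaks, KO1 libraries 3586, 3893 and 4135 and KO2 libraries 3850, 3788 and 4204. The groups did not overlap, though the lowest KO library and the highest WT library lay close, and the KO mean was 1.26 times the WT mean (exact permutation p = 0.0238, adjusted p = 0.0940). In equal lists of 150000 peaks the difference was 439.8 bases (exact permutation p = 0.119), and with flanks of 10 kb 308 bases (exact permutation p = 0.143). In rescue, the window had 3750 to 4389 bases, all 6 above every WT library, and did not pass the test against KO (exact permutation p = 0.0887, adjusted p = 0.170).

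No SOX9 region passed the rule of all against none. The nearest were a region at -23.7 kb (72097168 to 72097546), in every KO2, Rescue1 and Rescue2 library and no WT or KO1 library, and a region at 13.8 kb (72134630 to 72134965), in all 3 KO1 and all 3 Rescue1, no KO2, 1 Rescue2 and no WT library. The SOX9 promoter region, 1990 bases wide, was in all 15 libraries. Its promoter bases were 974 to 1348 in WT and 1225 to 1597 in KO libraries, with overlap (exact permutation p = 0.0714, adjusted p = 0.267).

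SOX8 (ENSG00000005513.10, chromosome 16, 981770 to 986979, plus strand) encodes the E-group relative of SOX9. WT libraries had 5044, 4365 and 4159 bases under peaks and KO libraries 3683 to 4331 with a median of 3914. The KO mean was 0.870 times the WT mean, with 5 of 6 KO libraries below all WT libraries (exact permutation p = 0.0476, adjusted p = 0.144). Leaving out any of KO1 replicates 1, 2 and 3 and KO2 replicates 1 and 2 raised the exact permutation p to 0.0714, and without WT replicate 1 the difference was -329 in place of -589.7 bases. Rescue libraries had 4110 to 5162 bases, 4 of 6 within the WT range, and SOX8 rose by 833 bases from KO to rescue (exact permutation p = 0.00433, adjusted p = 0.0216). With flanks of 10 kb this was 100.2 bases and did not pass adjustment (exact permutation p = 0.0433, adjusted p = 0.120).

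The SOX8 start site itself had little signal. A region over it (981570 to 981784), near a start of LMF1 too, was in 2 WT libraries and no other, and another (981940 to 982060) was in 1 WT library. Distal elements carried the window, with 3376 to 3961 bases in WT, 2832 to 3584 in KO and 3470 to 4249 in rescue libraries. All 15 libraries held 9 of its distal regions. A region at -29.8 kb in LMF1 (951766 to 952194) was in every library but the 3 of KO1.

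SOX2 (ENSG00000181449.4, chromosome 3, 181711925 to 181714436, plus strand) encodes the B1-group factor that maintains stem cells with POU partners. WT libraries had 2027, 1807 and 1628 bases under peaks, KO libraries 1843 to 2189 and rescue libraries 1708 to 2236. All groups overlapped, with an exact permutation p of 0.190 for KO against WT (adjusted p = 0.355) and 0.600 for rescue against KO (adjusted p = 0.701). With flanks of 10 kb the difference between KO and WT was -9.83 bases. Of 6 regions in at least 2 libraries, 5 were in all 15: a pair at the promoter and elements at -11.3, 27.9 and 39.0 kb, all under the lncRNA SOX2-OT. The remaining one, at -2.18 kb (181709672 to 181709809), was in 3 WT, no KO1, 2 KO2, no Rescue1 and 1 Rescue2 library.

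SOX4 (ENSG00000124766.7, chromosome 6, 21593751 to 21598619, plus strand) encodes a C-group factor linked to the epithelial to mesenchymal transition. WT libraries had 3314, 2536 and 2699 bases under peaks, KO libraries 2499 to 3494 and rescue libraries 3087 to 3506. The groups overlapped (exact permutation p = 0.357 for KO against WT, adjusted p = 0.537, and 0.171 for rescue against KO, adjusted p = 0.275). The promoter region over the start was in all 15 libraries, as were distal regions at -5.40, -4.34, 2.98, 21.9 and 41.1 kb. Smaller promoter regions at 0.511 and 0.809 kb in the single exon were in 11 and 7 libraries, spread over the groups.

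SOX11 (ENSG00000176887.7, chromosome 2, 5692384 to 5701385, plus strand), the other C-group factor, known from neuron development, had no promoter peak in any library. The 1 region of its window, at -25.4 kb (5666898 to 5667049), held 152 and 80 bases under peaks in KO1 replicates 1 and 2, and every other library held none. KO and WT did not differ by the test (exact permutation p = 0.833, adjusted p = 0.913).

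Promoters and distal elements were counted apart. Of 18 own promoter regions in at least 2 libraries, 11 were in all 15 (61.1%), against 71 of 193 distal regions (36.8%). Over all regions of at least 2 libraries, inside or outside gene windows, the shares were 61.0% for promoter and 32.8% for distal regions. Distal bases were higher in KO than WT at an unadjusted p under 0.05 for SOX5, SOX6, SOX7 and SOX9, beside 24.7% of all genes, and lower for SOX17, beside 13.9%. Promoter bases in the windows, those of neighbouring genes included, were higher for SOX5 alone, beside 5.39% of all genes, and lower for none of the 10, beside 17.0%.

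In rescue against KO, distal bases were higher for SOX7, SOX8, SOX9, SOX13 and SOX17 at an unadjusted p under 0.05, beside 35.6% of all genes, and lower for SOX6, beside 7.85%. Promoter bases were higher for none of the 10, beside 25.5% of all genes, and lower for SOX5, beside 5.36%. At SOX5 the Rescue2 libraries lay within the KO range for promoter bases, and the Rescue1 libraries lay below it. No member passed adjustment for promoter bases in either comparison.

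**Figure D4:**
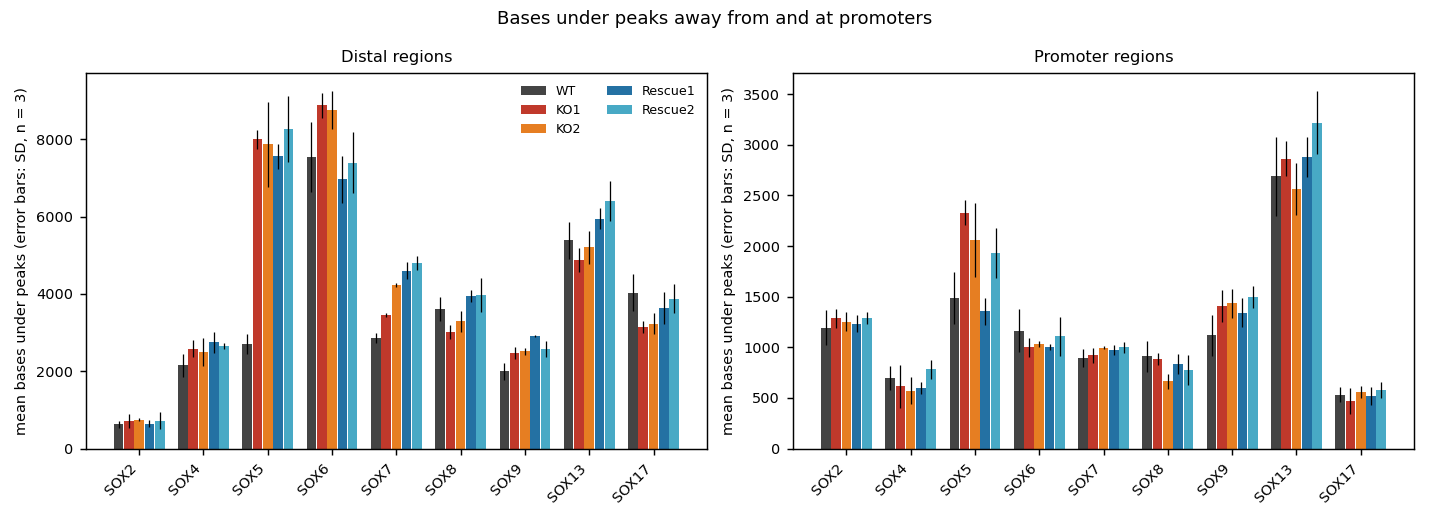
Mean bases under peaks in distal regions (left) and promoter regions (right) of 9 SOX windows by group, with error bars for the SD of 3 libraries; SOX11, with at most 152 bases, is left out. Distal bars of SOX5 rise from a WT mean of 2706 to 8000 in KO1 and 7871 in KO2, while the promoter bars differ less.

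Over the 217 member regions held by at least 2 libraries, 12 were gained in KO against WT (5.53%), beside 4.79% of all 293527 regions, and 3 were lost (1.38%), beside 2.48%. Of the 12 gained, 9 were at SOX5 and 1 each at SOX6, SOX7 and SOX13. In rescue against KO, 1 was gained (0.461%), beside 0.912%, and 3 were lost (1.38%), beside 1.23%. The member shares thus lay near those of the genome. All 6 rescue libraries held 6 of the 12 gained regions and none held 1, beside 44.8% and 17.0% of all regions gained in KO. Against WT, KO1 alone gained 19 member regions, beside 7.06% of all regions, and KO2 alone gained 20, beside 8.34%, and 12 of each were at SOX5.

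**Figure D5:**
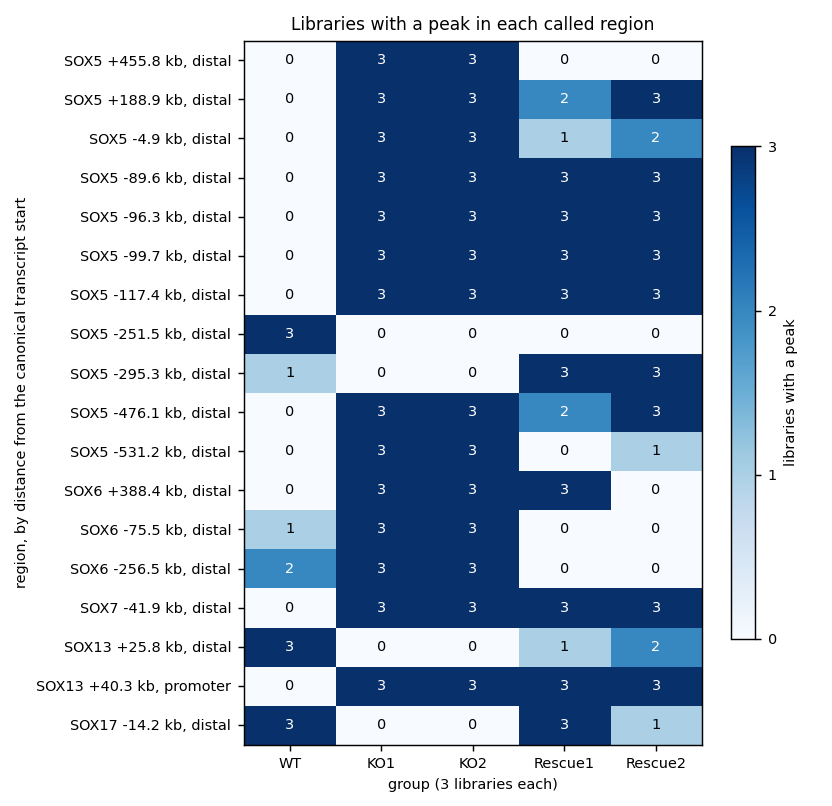
Number of libraries, 0 to 3 per group, with a peak in each of the 18 SOX regions gained or lost in either comparison, named by gene and distance from the canonical start. SOX5 regions from -89.6 to -117 kb read 0 in WT and 3 in every other group, while the SOX6 regions at -75.5 and -257 kb read 0 in both rescue clones.

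Related genes were counted from lists of names. Of 9 other SOX genes, 3 were higher in KO than WT at an unadjusted p under 0.05 (SOX3, SOX14 and SOX21), beside 17.6% of all genes, and none was lower, beside 15.5%. None passed adjustment, and the list's median difference was 134 bases beside 0 over all genes. SOX3, the B1-group relative of SOX2, had 730 to 895 bases in WT, 1389 to 1862 in KO and 992 to 1430 in rescue libraries, and fell by 419.8 bases in rescue (exact permutation p = 0.00433, adjusted p = 0.0216). SOX1, of the same group, was at 0 in all WT and rescue libraries and had 460, 618 and 826 bases in KO1 but 0, 116 and 179 in KO2. Its fall of 366 bases was against both KO clones, and each rescue clone differed from KO2 alone by -98.3. In rescue against KO, SOX10 and SOX18 rose and SOX1 and SOX3 fell past adjustment, beside 26.2% and 4.89% of all genes, and the median difference was 99.5 bases over the 9 genes and 365 over all genes.

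Of 7 cartilage matrix genes known as targets of SOX9, SOX5 and SOX6, 1 was higher in KO than WT at an unadjusted p under 0.05 (COL9A1), beside 17.6% of all genes, and 3 were lower (COL2A1, ACAN and COL11A2), beside 15.5%. None passed adjustment, and the median difference was -272 bases. In rescue, 5 rose past adjustment, beside 26.2% of all genes, with a median difference of 1076 bases over the 7 genes and 365 over all genes. COL9A1 lay lower in rescue without passing it (exact permutation test, adjusted p = 0.0582). ACAN, the aggrecan gene, had 4443 to 4947 bases in WT, 3496 to 4355 in KO and 4341 to 6174 in rescue libraries. Of 8 stem cell partners of SOX2, NANOG and LIN28B were higher in KO than WT at an unadjusted p under 0.05, beside 17.6% of all genes, and none was lower. Neither passed adjustment. In rescue, POU5F1 alone of the 8 rose past adjustment, by 1362 bases (exact permutation p = 0.00216, adjusted p = 0.0140), beside 26.2% of all genes. The median difference was 66.2 bases over the 8 genes and 365 over all genes.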

How the data were processed

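Per the labels' processing notes, ATAC-seq reads were aligned to hg38 by BWA, and MACS2 2.2.7.1 gave 1 peak list per library without pooling. The notes give BWA 0.7.17, and the methods name another version. The labels and the methods also differ in the number of cells used, and the design text mentions duplicates where the labels hold triplicates. The study compared read counts with DiffBind. The lists deposited by the authors hold intervals, a MACS2 score, the fold enrichment over the local background as a ratio, the −log10 p and the −log10 q. The deposited score was not used. The fold enrichment, −log10 p and −log10 q of the authors were used for ranking and filtering inside each list alone, since they refer to each library's own background. The lists hold no read counts, read depth was not derived here, and intervals for counting error cannot be given.

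The members and lists were chosen with earlier results of these data known. All 99 contigs were found in the reference. Peaks on chromosomes 1 to 22 and X that shared 1 bp were merged, and a library held a region if 1 bp was under its peak. Start sites, exons and genes were from GENCODE v44. A promoter region lay within 1 kb of a start of a protein-coding transcript, and other regions were distal. Bases under peaks were counted per library in each window, and a gene's canonical transcript gave distances. Permutation tests were exact and two-sided, doubling the smaller tail. Gained meant every library of the first group and none of the second, lost the reverse. The self-test on simulated data recovered the changed windows. Named were all 10 genes, every gained or lost region, own promoter regions not in all 15 libraries, and 3 lists of related genes. Some items that these rules name are not reported here. Any other region described was picked with its values in view. The genes most like a member were sought for the member with the largest difference over the pooled SD (SOX5, 7.24), by Spearman rho. Python 3.11.15, numpy 2.4.6, pandas 2.3.3 and matplotlib 3.10.9 were used. Alternatives were a stricter threshold, equal lists, scaling to total length under peaks, flanks of 10 kb, each KO clone alone, permutation within replicate numbers, other rules for holding and merging, promoters within 2.5 kb, and leaving out each library.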

Additional observations from a re-analysis of the deposited data

Results flagged for a closer look

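In 19 sets of 6 libraries (KO or rescue, for each SOX gene with any peak), 2 had a library far from the others by Dixon's criterion, and chance alone marks about 1 in 20 such sets. For SOX4, Rescue1 replicate 1 had 3087 bases under peaks, below the other 5 rescue libraries at 3400 to 3506. For SOX17, KO2 replicate 3 had 4054 bases, above the other 5 KO libraries at 3547 to 3716. KO2 replicate 3 also had the longest total under peaks of the KO libraries, 61.3 Mb, and its part in the SOX17 value was not tested.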

How the results depend on the processing

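With flanks of 10 kb, 3 members differed between KO and WT at an unadjusted p under 0.05 (SOX5 higher, beside 15.4% of all genes, and SOX8 and SOX17 lower, beside 14.9%) in place of 5. At that flank the SOX2 difference between KO and WT turned to -9.83 bases (exact permutation p = 0.881) and the SOX9 difference between rescue and KO to -49.3 (p = 0.654), and in equal lists the SOX4 difference between rescue and KO turned to -12.8 (p = 0.926). The other whole-set alternatives gave 4 to 6 members in both comparisons. Regions gained in KO, 12 in the main count, were 7 in equal lists of 150000 peaks (4.65% of all regions gained), 33 by a majority rule (12.9%), 19 with KO1 alone (7.06%) and 20 with KO2 alone (8.34%). Regions lost in KO, 3, were 1 in equal lists (3.81% of all regions lost), 13 by majority (9.63%) and 8 with KO1 alone (4.80%). Regions gained in rescue, 1, were 0 in equal lists (1.12%) and 0 when 50% of a region had to be covered (1.09%), 9 by majority (7.59%) and 5 with KO1 alone. Regions lost in rescue, 3, were 1 in equal lists (1.55%), 12 by majority (6.75%) and 7 with KO1 alone. For the rescue counts with KO1 alone the share of all regions was not computed, so they cannot be set against the genome. A majority rule and fewer libraries ask less of each region by construction, and equal lists hold fewer peaks. For the other changes the cause was not tested. Promoters within 2.5 kb left 232 of the 249 distal regions.

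Leaving out 1 library at a time gave 4 to 5 members in KO against WT and 5 to 6 in rescue against KO, where SOX9 passed without Rescue2 replicate 3 (exact permutation p = 0.0260). It gave 12 to 15 gained and 3 to 5 lost regions in KO, with 5 lost without WT replicate 2 or 3, and 1 gained and 3 to 5 lost in rescue, with 5 lost without Rescue2 replicate 1. With a WT library left out, with a single KO clone or with permutation within replicate numbers, KO against WT could not reach p under 0.05 (smallest p 0.0714, 0.10 and 0.0741), so members were not counted there. After scaling to total length under peaks, 2396 genes were higher and 7653 lower in KO past adjustment, in place of 0.

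No pairing by replicate number was visible: deviations of same-numbered libraries correlated between -0.65 and 0.45 over 30 pairs (median -0.06), 8 of them over 0.1. Differently numbered libraries could correlate too, such as KO2 replicate 2 and Rescue2 replicate 3 (0.62). A batch shared by replicate number was not tested. With permutation inside replicate blocks, rescue against KO still gave 5 members (smallest p 0.00926), the same genes as in the main count.

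The lists limit these values to calls at 1 threshold. Small regions near it come and go between libraries, 59 of the 276 SOX regions were in 1 library only, and a difference in read depth between groups cannot be told apart from one in accessibility.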
